A study of Homo sapiens with 17 samples.

Results

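Mitochondrial DNA holds 7 genes for subunits of respiratory complex I, namely MT-ND1, MT-ND2, MT-ND3, MT-ND4L, MT-ND4, MT-ND5 and MT-ND6. They were taken by their gene symbols after the transcripts listed in each library had been matched to genes. The rule used no measured value, but earlier results of these data were known when it was chosen. The 7 genes are part of the 13 protein genes of mitochondrial DNA, out of 15660 genes that were counted at all at 36 h and 17023 at 72 h. All 7 were counted at 36 h, while at 72 h a count was made for 2 of them, MT-ND4L and MT-ND5. HEK293, a human embryonic kidney line, was electroporated with sgIntron, a guide RNA against an intron of JAK2, in complex with Cas9 or with dCas9, the catalytically dead form. The dCas9 cells, which serve as control, thus carry the same guide and were electroporated in the same way, and cells without either protein were not analysed here. Ribosome-protected fragments (footprints) and total RNA depleted of ribosomal RNA (mRNA) were sequenced from lysates made at 36 h, with synthetic guides, and at 72 h, with guides transcribed in vitro. At 36 h there were 2 Cas9 (a and c) and 2 dCas9 (d and e) footprint libraries beside 3 Cas9 (a, b and c) and 2 dCas9 (d and e) mRNA libraries. At 72 h there were 2 libraries of each nuclease, e and f for footprints and a and b for mRNA, which makes 17 libraries in all. Each replicate was a plate that pooled several electroporations of the same cell line. For the 72 h Cas9 footprints, whose titles say rcas9, the nuclease was read from the treatment label.

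Complex I is the largest enzyme of the respiratory chain and the entry point for electrons from NADH. It passes those electrons to ubiquinone and pumps protons across the inner mitochondrial membrane. The catalytic core is built from subunits of 2 genomes: the 7 MT-ND proteins form the membrane arm, and 7 nuclear proteins form the peripheral arm that oxidizes NADH. MT-ND2, MT-ND4 and MT-ND5 are the proton-pumping, antiporter-like subunits, whereas MT-ND1, MT-ND3, MT-ND4L and MT-ND6 lie at or near the junction with the peripheral arm. The MT-ND mRNAs are cut from long transcripts that start on either strand of the mitochondrial genome, and they are read by mitochondrial ribosomes, not by the ribosomes of the cytosol. In bulk libraries, fewer mitochondria per cell and less RNA per mitochondrion cannot be told apart.

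On mitochondrial DNA of hg38 (chrM, 16569 bases), MT-ND1 spans positions 3307 to 4262, MT-ND2 4470 to 5511, MT-ND3 10059 to 10404, MT-ND4L 10470 to 10766, MT-ND4 10760 to 12137, MT-ND5 12337 to 14148 and MT-ND6 14149 to 14673. Each gene is a single exon in the GENCODE annotation. They are listed as transcripts ENST00000361390, ENST00000361453, ENST00000361227, ENST00000361335, ENST00000361381, ENST00000361567 and ENST00000361681 in the same order. MT-ND6 lies on the minus strand and the other 6 on the plus strand. The gene ends are shown because they separate the members with a count at 72 h from those without. Each line gives the last 30 bases of the gene, 5′ to 3′ on its own strand, and the capitals mark its final codon or the bases left over after the last whole codon.
MT-ND1: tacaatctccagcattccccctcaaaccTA
MT-ND2: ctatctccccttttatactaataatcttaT
MT-ND3: gactacaaaaaggattagactgaaccgaaT
MT-ND4: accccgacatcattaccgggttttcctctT
MT-ND4L: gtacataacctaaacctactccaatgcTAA
MT-ND5: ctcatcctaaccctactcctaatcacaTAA
MT-ND6: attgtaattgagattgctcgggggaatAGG
MT-ND4L and MT-ND5 end in a complete TAA stop codon. MT-ND1, MT-ND2, MT-ND3 and MT-ND4 end within a codon, and their stop is known to be completed by the poly(A) tail. MT-ND6 ends in AGG, which is not a stop codon of the standard code. At 72 h the listed coding length was missing and the count was 0 in every library for MT-ND1, MT-ND2, MT-ND3, MT-ND4 and MT-ND6, so these are unmeasured and not absent. Of the 13 mitochondrial protein genes, 5 had a counted coding length at 72 h, and these were the 5 whose annotation in GENCODE release 44 holds a stop codon. Whether the annotated stop decided what was counted was not tested.

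The reading frames of MT-ND4L and MT-ND4 overlap on the same strand. The 30 bases from position 10748 to 10777 carry the overlap of 7 bases, in capitals, from the start codon of MT-ND4 to the stop codon of MT-ND4L.
MT-ND4L and MT-ND4: aaacctactccaATGCTAAaactaatcgtc
MT-ND5 and MT-ND6 abut on opposite strands with 0 bases between them. The mRNA kit keeps the strand, but whether the counting used it was not given in the sources used here. Base composition also sets MT-ND6 apart, with 35.6% G and 7.0% C on its own strand, against 9.5 to 12.1% G in the other 6 genes. Copies of mitochondrial DNA in nuclear chromosomes match the members to very different extents. For MT-ND3, MT-ND4, MT-ND4L and MT-ND5, 0% of stretches of 50 bases, the read length, had an exact nuclear copy in hg38, against 22.1% for MT-ND1, 43.6% for MT-ND2 and 20.0% for MT-ND6. For stretches of 30 bases, about the size of a footprint, the shares were 0.9% for MT-ND3, 1.5% for MT-ND5, 3.4% for MT-ND4, 6.0% for MT-ND4L, 28.4% for MT-ND1, 33.7% for MT-ND6 and 58.0% for MT-ND2. How reads with several matches were treated was not given in the sources used here, so the counts of MT-ND1, MT-ND2 and MT-ND6 carry an uncertainty that MT-ND3, MT-ND4, MT-ND4L and MT-ND5 carry less of.

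Library totals, over 1 transcript per gene, ran from 25095505 to 33350952 counts for mRNA and from 689636 to 4868580 for footprints at 36 h, a 7.06-fold range. At 72 h they ran from 33040306 to 42825659 for mRNA and from 3183558 to 8864461 for footprints. Of 6 genes typical of HEK293, 5 were at 1 CPM or more in every mRNA library, while PAX2 reached 0.315 CPM at most. Of these, NEFM, a neurofilament gene, fell in mRNA at 72 h (log2 fold change -0.89, adjusted p = 0.033). Of 6 markers of blood, liver, fibroblast, endothelial and islet cells, HBB and INS were at 0 in every mRNA library, and 1, COL1A1, was at 1 CPM or more throughout, with a highest level of 10 CPM. The nuclease effect was tested in edgeR's quasi-likelihood model over all genes whose mean count reached 20 in footprints and in mRNA, and a gene was called at a Benjamini-Hochberg adjusted p (FDR) under 0.1.

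At 36 h the mRNA levels of the 7 members were spread over a wide range. CPM is edgeR's count of a gene per 1e+06 counts of the tested genes, after TMM scaling. MT-ND4 was at 255.4, 253.8 and 300.6 CPM in the Cas9 libraries and at 285.4 and 202.5 CPM in the dCas9 libraries. MT-ND3 was at 161.6, 177.1 and 234.1 CPM with Cas9 and at 207.3 and 203.7 CPM with dCas9. MT-ND2 followed with 136.8, 159.1 and 192.2 CPM with Cas9 and 171.7 and 126.1 CPM with dCas9. In each of these 3 mRNAs the values of both nucleases overlapped, and Cas9 replicate c was the highest Cas9 library. MT-ND5 mRNA was at 110.0, 111.3 and 134.1 CPM with Cas9 and 122.2 and 94.4 CPM with dCas9. MT-ND1 mRNA was at 87.3, 93.1 and 113.6 CPM with Cas9 and 110.1 and 66.1 CPM with dCas9. Among the dCas9 libraries, replicate d lay above replicate e for all 7 members. MT-ND4L mRNA, the shortest of the set, was at 31.2, 36.8 and 42.1 CPM with Cas9 and 34.9 and 30.7 CPM with dCas9. MT-ND6 mRNA, the only member read from the other strand, was the lowest at 9.15, 5.64 and 9.95 CPM with Cas9 and 8.83 and 8.55 CPM with dCas9, which rests on 146 to 340 counts per library.

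**Figure D1:**
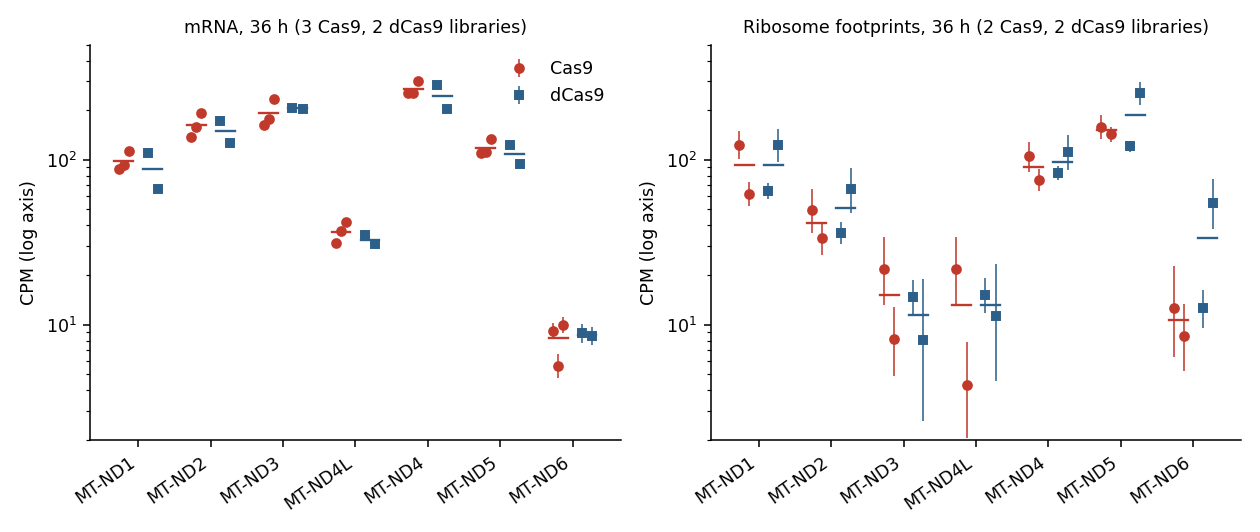
Levels of the 7 mitochondrial complex I genes at 36 h, in CPM (log axis), for mRNA (left) and footprints (right), with 1 point per library, a 95% counting interval on each point and a bar at the group mean. The ranges of both nucleases overlap for every gene, a single dCas9 footprint library stands high for MT-ND6 (54.7 CPM), and MT-ND3, MT-ND4L and MT-ND6 have wide intervals in footprints.

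Footprints at 36 h gave far fewer counts, from 5 to 567 per member and library. MT-ND5 had the most, at 158.8 and 142.7 CPM with Cas9 and 120.5 and 254.4 CPM with dCas9. MT-ND4 footprints were at 104.7 and 75.4 CPM with Cas9 and 83.3 and 111.1 CPM with dCas9. MT-ND1 footprints were at 123.2 and 62.1 CPM with Cas9 and 64.6 and 122.3 CPM with dCas9. For all members but MT-ND3 and MT-ND4L the higher library of each nuclease was the shallower of its pair, Cas9 replicate a and dCas9 replicate e. In MT-ND3 and MT-ND4L this held with Cas9 only. MT-ND2 footprints were at 49.5 and 33.4 CPM with Cas9 and 36.1 and 66.0 CPM with dCas9. MT-ND3 was at 21.9 and 8.14 CPM with Cas9 and at 14.7 and 8.05 CPM with dCas9, the last from 5 counts. MT-ND4L was at 21.9 and 4.29 CPM with Cas9 and 15.1 and 11.3 CPM with dCas9, from 7 to 71 counts. MT-ND6 was at 12.7 and 8.57 CPM with Cas9 and 12.5 and 54.7 CPM with dCas9, so that a single library, dCas9 replicate e with 34 counts, stood above the other 3. The members together made up 0.0447% of all footprint counts in Cas9 replicate a and 0.0566% in dCas9 replicate e, against 0.0311% in Cas9 replicate c and 0.0335% in dCas9 replicate d. The other 6 mitochondrial genes moved alike, at 0.134%, 0.174%, 0.0821% and 0.0872% of the same libraries. Depth thus moved with the level of mitochondrial footprints within both nucleases, and its part in the values was not tested.

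Per length, the order of the members differed between mRNA and footprints. The counted part ran from 78 codons in MT-ND4L to 583 in MT-ND5, and densities were taken over the libraries of both nucleases. In mRNA at 36 h, MT-ND3 had the highest density, 207 ± 29.7 CPM per 100 counted codons (SD, n = 5). It was followed by MT-ND4 with 59.1 ± 8.56, MT-ND2 with 48.1 ± 8.12, MT-ND4L with 45.0 ± 5.98, MT-ND1 with 31.5 ± 6.41, MT-ND5 with 19.6 ± 2.54 and MT-ND6 with 5.44 ± 1.06. MT-ND3 stood clear of MT-ND4, MT-ND4L of MT-ND1 and MT-ND5 of MT-ND6, with no overlap between libraries, while MT-ND4 and MT-ND2, MT-ND2 and MT-ND4L, and MT-ND1 and MT-ND5 overlapped with their neighbour in this order. All members but MT-ND3 lay below MT-CYB (81.3), the cytochrome b gene of complex III. The cytochrome c oxidase genes MT-CO3 (1654), MT-CO1 (1551) and MT-CO2 (821) were above every member. In footprints the members lay much closer together, and every neighbouring pair overlapped. MT-ND1 had 31.1 ± 11.5 CPM per 100 codons (SD, n = 4), MT-ND5 29 ± 10.1, MT-ND4 21.3 ± 3.87, MT-ND4L 16.8 ± 9.42, MT-ND6 14.3 ± 14.1, MT-ND2 14.2 ± 4.56 and MT-ND3 13.9 ± 6.91. MT-ND3 was first of the members in mRNA and last in footprints.

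**Figure D2:**
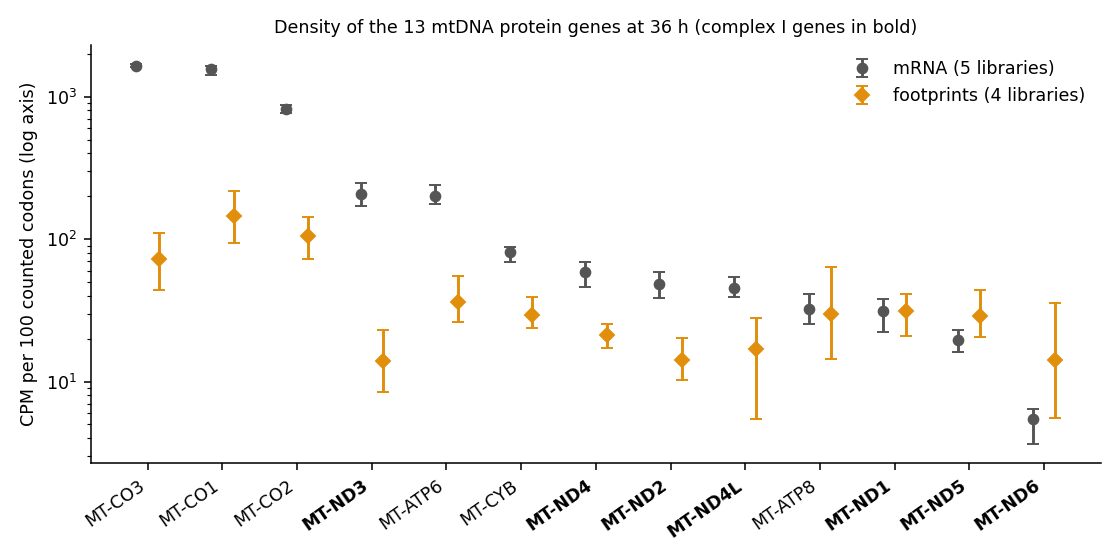
Density of the 13 mitochondrial protein genes at 36 h in CPM per 100 counted codons (log axis), with the mean over libraries as point and the lowest and highest library as bar, ordered by mRNA. In mRNA the complex I genes (bold) run from 207 for MT-ND3 to 5.44 for MT-ND6, whereas their footprint densities lie between 13.9 and 31.1.

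The ratio of footprint to mRNA CPM, which is relative to the other genes of each library, gives the same contrast per gene. Over the 4 lysates of 36 h that gave both library types, it was 0.135 and 0.0348 for MT-ND3 with Cas9 and 0.0707 and 0.0395 with dCas9. For MT-ND5 it was 1.44 and 1.06 with Cas9 and 0.986 and 2.69 with dCas9, and these values lay above those of MT-ND3 in every lysate. MT-ND6 had 1.38 and 0.861 with Cas9 and 1.42 and 6.40 with dCas9. MT-ND1, the other subunit with about as many footprints as mRNA on the CPM scale, had 1.41 and 0.547 with Cas9 and 0.587 and 1.85 with dCas9. MT-ND2, MT-ND4 and MT-ND4L lay between, at 0.102 to 0.702 in single lysates.

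MT-ND4L and MT-ND4 are known to be carried on a shared mRNA, so their densities can be set against each other. In mRNA at 36 h the density of MT-ND4L was 0.686 to 0.853 of that of MT-ND4 over 5 libraries, with a median of 0.789. In footprints the ratio was 0.320 to 1.18 over 4 libraries, with the lowest in Cas9 replicate c, where MT-ND4L had 10 counts. MT-ND5 mRNA, against MT-ND4L, had 0.405 to 0.473 of the density in all 5 libraries. The ratio of MT-ND5 to MT-ND6 in mRNA was 2.94 to 5.25, with a median of 3.58.

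Complex I genes took a larger part of mitochondrial footprints than of mitochondrial mRNA. At 36 h the 7 members made up 24.97% (Cas9 a), 27.5% (Cas9 c), 27.8% (dCas9 d) and 24.6% (dCas9 e) of the footprint counts of the 13 genes. In mRNA they made up 5.51%, 5.47% and 6.52% with Cas9 and 6.10% and 5.29% with dCas9. The lowest footprint library lay above the highest mRNA library, and the libraries of both types shared lysates. Nuclear copies matched 69.3% of stretches of 30 bases and 50.6% of stretches of 50 bases in MT-CO1, against 0.3 and 0% in MT-CYB. How far such copies moved these shares was not tested. The widest 95% binomial interval (Wilson), in the shallowest footprint library, ran from 22.5 to 26.7%, and it covers counting error only. Between nucleases, the share differed by 0.0447 percentage points in footprints and 0.137 in mRNA, and Cas9 and dCas9 libraries overlapped in both (exact permutation test, two-sided, p = 1 and 0.8). The smallest p that these designs allow is 0.333 for 2 against 2 libraries and 0.1 for 3 against 2.

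**Figure D3:**
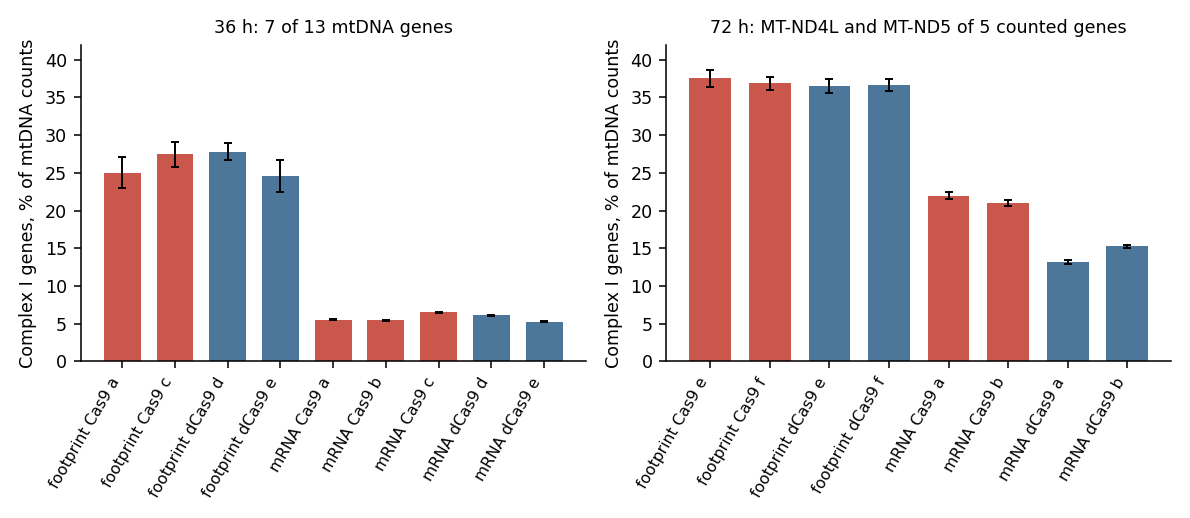
Share of mitochondrial protein-gene counts, in percent, that fell on complex I genes in each library (red, Cas9, blue, dCas9, bars from 0, with 95% Wilson intervals), at 36 h for 7 of 13 genes and at 72 h for MT-ND4L and MT-ND5 among 5 counted genes. Footprint shares lie above mRNA shares at both times, and in 72 h mRNA the Cas9 libraries (20.99 and 21.98%) lie above the dCas9 libraries (13.2 and 15.2%).

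At 36 h no member passed the test between Cas9 and dCas9 in footprints, mRNA or translational efficiency, the change in footprints beyond that in mRNA. The background was the same, with 0% of 9016 genes called in each of these 3 comparisons, while 862, 26 and 568 genes had an unadjusted p under 0.05. DESeq2 called 46, 0 and 1 genes in them, and none of the 7 members. In mRNA the log2 fold changes (Cas9 over dCas9) of the members were between -0.11 and 0.16, and 5 of 7 were above 0, with a median of 0.13 beside -0.00027 over all genes. MT-ND4 had the smallest error, 0.15 with a standard error of 0.17 and a 95% interval of -0.18 to 0.47. MT-ND4L had the highest estimate, 0.16 with an interval of -0.45 to 0.77. In footprints 6 of 7 members were below 0, with a median of -0.17 beside 0.02 over all genes. Of the other 6 mitochondrial genes 0 were above 0, with a median of -0.20, so this direction was not particular to complex I. In mRNA 4 of those 6 were above 0, with a median of 0.05. MT-ND1 was at 0.05 (interval -0.67 to 0.77), MT-ND4 at -0.08 (-0.54 to 0.38) and MT-ND5 at -0.20 (-0.75 to 0.34). Differences inside these intervals could not be detected with these libraries and this model, which estimates the spread of a gene jointly over footprints and mRNA. With each library type fitted alone, 188 genes in footprints and 422 in mRNA had an unadjusted p under 0.05.

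MT-ND6 had the largest footprint estimate of the set at 36 h, a log2 fold change of -1.47 with a standard error of 0.68 (edgeR, adjusted p = 0.51). This value rested on dCas9 replicate e, the shallowest library: without it the estimate was -0.32 (adjusted p = 0.85), and without dCas9 replicate d it was -2.45 (adjusted p = 0.035). Of the 4 Cas9 and dCas9 pairs of libraries, MT-ND6 was higher in Cas9 in 1. MT-ND5 footprints also depended on these libraries, with an estimate of 0.31 without dCas9 replicate e and of -0.77 without dCas9 replicate d. That omission moved the calls over all genes from 0 to 918 (10.2%), and leaving out Cas9 replicate c moved them to 323 (3.58%). In translational efficiency all 7 members were below 0, from -0.01 for MT-ND3 to -1.40 for MT-ND6, and no adjusted p was under 0.83. The median of the members was -0.30, beside -0.24 for the other 6 mitochondrial genes, of which 1 was above 0.

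At 72 h, where MT-ND4L and MT-ND5 were counted, the estimates for footprints and for mRNA had opposite signs. MT-ND4L footprints were at 103.4 and 105.1 CPM in the Cas9 libraries (e and f) and at 78.5 and 72.0 CPM in the dCas9 libraries. MT-ND5 footprints were at 754.9 and 746.0 CPM with Cas9 and 591.8 and 535.4 CPM with dCas9. Both Cas9 libraries were above both dCas9 libraries for each gene, by 0.33 to 0.54 on the log2 scale in the 4 pairs. Such a separation was found in 16% of 10896 genes tested. The log2 fold change was 0.47 with a standard error of 0.19 for MT-ND4L and 0.41 with a standard error of 0.14 for MT-ND5, and neither passed the test (edgeR, adjusted p = 1 for both). The background was 0% of 10896 genes called, with 397 at an unadjusted p under 0.05 and 0 called by DESeq2. With the footprint libraries fitted alone, MT-ND5 was called (log2 fold change 0.41, adjusted p = 0.0027) and MT-ND4L was not (0.47, adjusted p = 0.13), beside 0.0367% of genes, 4 in number.

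In mRNA at 72 h, MT-ND4L was at 23.1 and 30.1 CPM with Cas9 and at 30.4 and 47.4 CPM with dCas9. Cas9 was lower in 4 of 4 pairs, but the closest pair differed by only 0.01 on the log2 scale. All Cas9 libraries lay below all dCas9 libraries in 25.8% of the genes tested. The log2 fold change was -0.55 with a standard error of 0.18 (edgeR, adjusted p = 0.11), just outside the threshold. It was -0.82 (adjusted p = 0.0012) without dCas9 replicate a, -0.77 (adjusted p = 0.00984) without Cas9 replicate b, -0.38 (adjusted p = 0.80) without Cas9 replicate a and -0.25 (adjusted p = 0.26) without dCas9 replicate b, with 7.63, 6.15, 1.01 and 22.7% of all genes called in these fits. MT-ND5 mRNA was at 188.4 and 245.0 CPM with Cas9 and at 202.0 and 282.2 CPM with dCas9, so the groups overlapped. Its log2 fold change was -0.16 with a standard error of 0.14 (adjusted p = 0.58). It was -0.39 without Cas9 replicate b and 0.046 without dCas9 replicate b. With all libraries, neither member was among the 5.64% of genes called, which were 614 in number, 46 higher and 568 lower with Cas9. That balance depended on the libraries and the scaling, with 0 higher and 110 lower without Cas9 replicate a, 1075 and 1398 without dCas9 replicate b, and 9518 and 7 with the mitochondrial total in place of the library total.

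**Figure D4:**
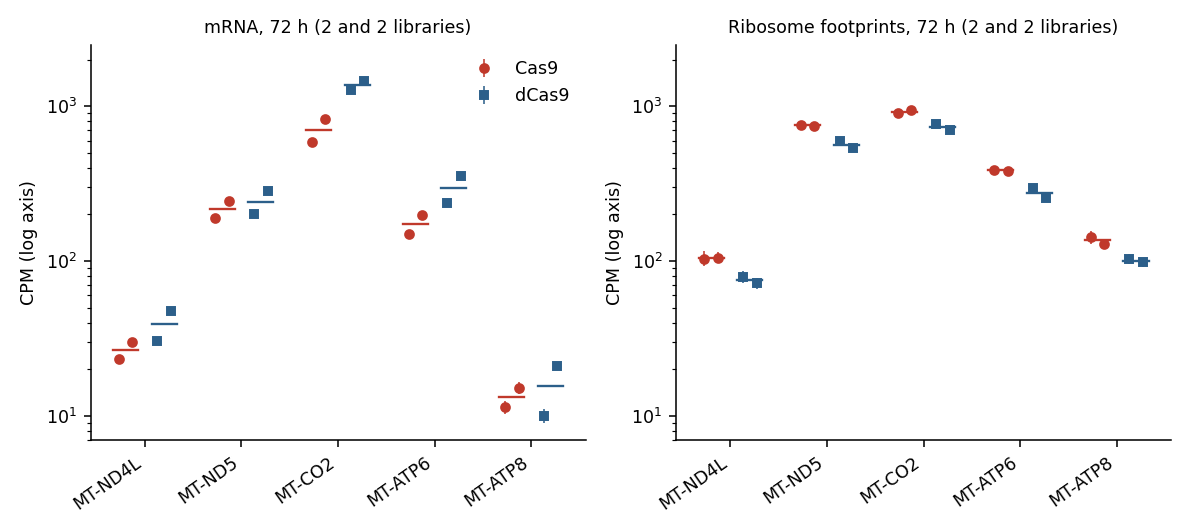
Levels of the 5 mitochondrial genes counted at 72 h, in CPM (log axis), for mRNA (left) and footprints (right), with 1 point per library, 95% counting intervals and a bar at the group mean. In footprints the Cas9 points are above the dCas9 points for MT-ND4L and MT-ND5 as for the other 3 genes, and in mRNA MT-ND5 overlaps while MT-CO2 is separated.

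Translational efficiency at 72 h combined both directions. For MT-ND4L the ratio of mean footprint to mean mRNA CPM was 3.92 with Cas9 and 1.94 with dCas9, a log2 difference of 1.02 with a standard error of 0.25 (edgeR, adjusted p = 0.11). For MT-ND5 the ratio was 3.46 with Cas9 and 2.33 with dCas9, a log2 difference of 0.57 with a standard error of 0.20 (adjusted p = 0.28). Both therefore missed the threshold, while 0.716% of genes, 78 in number, passed it. MT-ND4L stood so close to the threshold that DESeq2 (adjusted p = 0.00764) and DESeq2 size factors in edgeR (adjusted p = 0.020) called it, beside 2.03 and 1.56% of all genes, whereas leaving out single footprint libraries gave adjusted p values of 0.30 to 0.44. Without mRNA Cas9 replicate b or dCas9 replicate a both members were called, with 1.25 and 1.29 for MT-ND4L and 0.80 and 0.78 for MT-ND5, and without dCas9 replicate b MT-ND4L alone was (0.72, adjusted p = 0.039). Over all genes, 2.28, 2.05 and 9.77% were called in these 3 fits.

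The 3 other mitochondrial genes counted at 72 h shared the direction in footprints, with 0.33 for MT-CO2, 0.49 for MT-ATP6 and 0.43 for MT-ATP8. None was called in the main fit. With the footprint libraries fitted alone, MT-ATP6 (edgeR, adjusted p = 0.0027) and MT-CO2 (adjusted p = 0.048) were called and MT-ATP8 was not. The call of MT-ND5 in that fit was therefore not particular to complex I. In mRNA all 3 of these other genes were below 0, but only MT-CO2 and MT-ATP6 were called. MT-CO2, a catalytic subunit of cytochrome c oxidase, fell by 0.95 on the log2 scale (adjusted p = 0.00082), from 1279 and 1457 CPM with dCas9 to 590.3 and 821 CPM with Cas9. MT-ATP6, a membrane subunit of ATP synthase, fell by 0.76 (adjusted p = 0.013), and MT-ATP8 was at -0.24. Translational efficiency rose for MT-CO2 (1.29, adjusted p = 0.0087) and MT-ATP6 (1.25, adjusted p = 0.040). Both of these calls were lost when footprint Cas9 replicate e or f or dCas9 replicate f was left out (adjusted p = 0.13, 0.18 and 0.32 for MT-CO2 and 0.18, 0.23 and 0.33 for MT-ATP6), and that of MT-ATP6 also without dCas9 replicate e (adjusted p = 0.34).

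**Figure D5:**
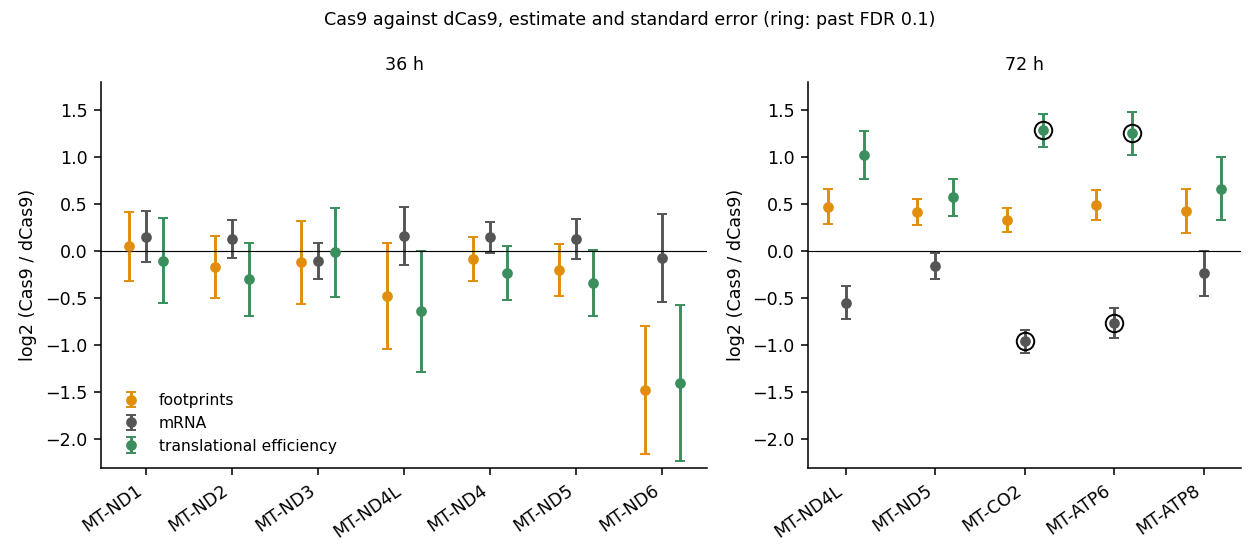
Log2 fold change of Cas9 over dCas9 with its standard error from edgeR, for footprints, mRNA and translational efficiency, for the 7 complex I genes at 36 h (left) and the 5 counted mitochondrial genes at 72 h (right). A ring marks an adjusted p under 0.1, which no complex I gene reached and which MT-CO2 and MT-ATP6 reached in mRNA and translational efficiency at 72 h.

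Scaled on the mitochondrial total, which includes the members, the mRNA estimates of MT-ND4L and MT-ND5 at 72 h changed sign. MT-ND4L and MT-ND5 made up 21.98 and 20.99% of the mRNA counts of the 5 genes with Cas9 and 13.2 and 15.2% with dCas9. The mean share was 21.5 ± 0.699% against 14.2 ± 1.43% (SD, n = 2 each), a difference of 7.25 percentage points with no overlap (exact permutation test, two-sided, p = 0.333, the smallest this design allows). In footprints the shares were 37.5 and 36.9% with Cas9 and 36.5 and 36.6% with dCas9, also without overlap but only 0.635 percentage points apart. As a part of all counts, members were at 0.0807 ± 0.000947% of footprints with Cas9 and 0.0604 ± 0.00443% with dCas9, and at 0.0253 ± 0.00482% and 0.0294 ± 0.00691% of mRNA, where they overlapped. The 3 other genes were at 0.0928 ± 0.0214% of mRNA with Cas9 and 0.176 ± 0.0209% with dCas9. MT-CO2 was the most counted of them, with a mean of 705.8 CPM with Cas9 and 1368 CPM with dCas9. MT-ATP8 overlapped, at 11.3 and 15.1 CPM with Cas9 and 9.91 and 21.0 CPM with dCas9. The ratio of MT-CO2 to MT-ND5 density in mRNA shows the same within each library, at 8.80 and 9.41 with Cas9 against 17.8 and 14.5 with dCas9, while in footprints it stayed within 3.34 to 3.68. With the library total replaced by the mitochondrial total, which moved the median over all genes by 0.80 in mRNA, -0.40 in footprints and -1.21 in translational efficiency, MT-ND5 mRNA was at 0.64 (adjusted p = 0.010) and MT-ND4L mRNA at 0.26, both below the median of 0.82 over all genes, and MT-CO2 mRNA was at -0.18 (adjusted p = 0.47). MT-ATP8 mRNA was at 0.59 and MT-ATP6 mRNA at 0.04, so an estimate above 0 with this scaling was not particular to complex I. As 87.4% of all genes were called in mRNA with this scaling, the call of MT-ND5 is no result about that gene. On that scale the footprint estimates were 0.07 and 0.02 for MT-ND4L and MT-ND5, and translational efficiency was at -0.19 and -0.62.

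At 36 h MT-ND4L and MT-ND5 made up 6.69, 6.71 and 7.10% of the mRNA counts of the same 5 genes with Cas9 and 6.45 and 5.84% with dCas9, a difference of 0.684 percentage points (exact permutation test, p = 0.1, the smallest for 3 against 2 libraries). Annotation and guide preparation changed between the time points, and the aligner may have, so levels at 36 and 72 h were not compared, and a difference in the nuclease effect cannot be told apart from them. The nuclease effect was nonetheless set side by side in a fit of all 17 libraries. Between 72 and 36 h the log2 effect differed by 1.05 for MT-ND4L (standard error 0.58, adjusted p = 0.65) and by 0.57 for MT-ND5 (standard error 0.33, adjusted p = 0.69) in footprints, where 0.0223% of 8970 genes were called. In mRNA it differed by -0.70 (standard error 0.34, adjusted p = 0.71) and -0.28 (standard error 0.28, adjusted p = 0.93), where 0.524% were called. Without dCas9 replicate d of the 36 h footprints, the difference for MT-ND5 was 1.17 (adjusted p = 0.029), beside 10.5% of all genes called.

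Within 72 h libraries, MT-ND4L and MT-ND5 had about the same level per length in footprints, while their ratio in mRNA differed between the nucleases. In footprints MT-ND4L had 113.6 ± 21.5 and MT-ND5 112.5 ± 18.9 CPM per 100 codons (SD, n = 4), and the ratio of MT-ND5 to MT-ND4L lay between 0.960 and 1.02 in all 4 libraries. In mRNA they had 41.4 ± 13.1 and 39.3 ± 7.31, and the ratio was 1.10 in both Cas9 libraries and 0.900 and 0.806 in the dCas9 libraries. MT-CO2 was the densest of the 5 genes in both library types, with 398.6 CPM per 100 codons in footprints and 498.5 in mRNA.

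The nuclear core of the complex was not called either. The 7 nuclear core subunits, among them NDUFV1 and NDUFV2, carry the flavin and the iron-sulfur clusters or the quinone site, and 0 of 7 were called in any comparison, although 2 of 7 were in 72 h mRNA without dCas9 replicate b, a fit that called 22.7% of all genes. Their median log2 fold change at 72 h was 0.0009 in footprints and 0.06 in mRNA, beside 0.0018 and 0.02 over all genes. NDUFV2 had the highest 72 h values, 0.26 in footprints (standard error 0.12, adjusted p = 1) and 0.26 in mRNA (standard error 0.11, adjusted p = 0.25). At 36 h the footprint estimate of NDUFV1 was 0.34 (standard error 0.14, adjusted p = 0.47). Of 30 supernumerary subunits, 30 were tested at 72 h, and in mRNA 1 rose, NDUFA1 (0.37, adjusted p = 0.093), and 2 fell, NDUFA8 (-0.43, adjusted p = 0.049) and NDUFS6 (-0.43, adjusted p = 0.027), while the median was 0.19. None of them was called in footprints, where the median was -0.01, or at 36 h, where 29 were tested. Among 17 assembly factors, NDUFAF4 rose in 72 h mRNA (0.40, adjusted p = 0.086), with a median of 0.23 over the list. The calls in both lists stood beside 5.64% of all genes tested in 72 h mRNA. Without Cas9 replicate a of the 72 h mRNA, none of the supernumerary subunits or assembly factors was called, and without dCas9 replicate b 6 of 30 and 4 of 17 were, near the share over all genes. Leaving out the footprint dCas9 replicate e or f left 1 supernumerary subunit called, and NDUFAF4 was lost without any 1 of the 4 footprint libraries or without mRNA dCas9 replicate a.

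Genes that serve mitochondrial DNA, RNA or translation were called at about the share of all genes. A list of 25 genes for transcription and handling of mitochondrial RNA also held proteins that act on mitochondrial DNA. From this list 1 gene rose in 72 h mRNA, SSBP1, the mitochondrial single-stranded DNA-binding protein (0.39, adjusted p = 0.046). TWNK, the mitochondrial DNA helicase, fell (-0.57, adjusted p = 0.019). These are 2 of 25 genes, beside 5.64% of all genes tested. None of the 25 passed in footprints or at 36 h, and in 72 h mRNA 0 passed without Cas9 replicate a, 9 without dCas9 replicate b (22.7% of all genes), and 1 without mRNA dCas9 replicate a or footprint dCas9 replicate e or f. Of 12 mitochondrial translation factors 0 were called in any comparison (1 in 72 h mRNA and 1 in translational efficiency without mRNA dCas9 replicate b), with medians at 72 h of -0.03 in footprints and 0.13 in mRNA. In 36 h footprints, leaving out dCas9 replicate d called 1 nuclear core subunit, 1 supernumerary subunit, 2 assembly factors and 3 of the 25 RNA genes, and leaving out Cas9 replicate c called 2 assembly factors and 2 of the 25, beside 10.2 and 3.58% of all genes.

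Across all 17 libraries, each centred on the mean of its time point and library type, the nuclear genes whose log2 CPM followed the sum of the counted members most closely were MANSC1 (Pearson r = 0.89), RAB5A (0.87), LRP6 (0.85), USP24 (0.84) and HTATIP2 (0.83), out of 8965 genes. These values are a description over 17 libraries that share depth and lysates, and they were not tested. Of the mitochondrial genes counted at both times, MT-ATP6 had r = 0.91, MT-CO2 0.78 and MT-ATP8 0.73 with the same sum, and the members MT-ND5 and MT-ND4L, which are part of it, had 0.95 and 0.58.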

How the data were processed

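Counts of reads per transcript, without normalization, and the counted coding length in codons are the values the authors deposited. They aligned reads to GRCh38.p2, GENCODE release 22, with hisat2 (36 h libraries) or to GRCh38.p7, release 25, with tophat (72 h libraries), and tabulated reads with fp-count on the basic annotation. The submitters' processing notes name HISAT2 2.1.0 for all libraries, so the aligner at 72 h is given in 2 ways. Of 26679 transcripts listed at 36 h and 98334 at 72 h, 25338 and 94878 were matched by identifier to GENCODE release 44, which also gave coordinates on hg38. A coding length was missing for 43611 transcripts at 72 h and 0 at 36 h. Where a gene had several transcripts, the most counted at that time point stood for it.

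Each time point was fitted in edgeR 4.0.16 (R 4.3.3), with 4 group means (nuclease by library type), TMM factors and the quasi-likelihood test, on genes whose mean count reached 20 in both library types (9016 genes at 36 h, 10896 at 72 h). Translational efficiency is the interaction of nuclease and library type. Standard errors were derived from the F statistic, and 95% intervals are normal. P-values were adjusted by Benjamini-Hochberg over all genes tested, with a threshold of 0.1. Log2 CPM used a prior count of 2. Alternatives were DESeq2 1.42.0, DESeq2 size factors, scaling on nuclear genes or on the mitochondrial total, no count minimum, filterByExpr, each library type alone, a replicate block, and leaving out each library. P-values of the main fits rest on a spread per gene that is estimated jointly over footprint and mRNA libraries from plates of a single cell line. Footprint and mRNA libraries of the same 36 h lysate entered these fits as separate units.

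All 7 members, the other mitochondrial protein genes, the 7 nuclear core subunits and, from each further list, up to 3 called genes with the smallest adjusted p were to be named, as were the 5 nuclear genes most correlated with the members, and some of these results are not reported here. The members, lists and tests were chosen with earlier results of these data known. For Cas9 replicate b of 36 h only mRNA is used, and its footprints were not analysed here.

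At 36 h a footprint and an mRNA library with the same letter come from the same lysate, which pairs them for translational efficiency. Their deviations from the group means correlated at 0.0115 to 0.0651.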

Additional observations from a re-analysis of the deposited data

How the results depend on the processing

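Without any alternative, 0 members were called in any comparison. The members called at 72 h became 1 in footprints with each library type alone, 1 in mRNA (MT-ND4L, lower) with DESeq2, DESeq2 size factors or no count minimum, and 1 (MT-ND5, higher) with the mitochondrial total. In translational efficiency they became 1 (MT-ND4L, higher) with DESeq2 or DESeq2 size factors, 1 (MT-ND5, lower) with the mitochondrial total and 2 (both higher) with no count minimum. At 72 h the sources used here do not say whether libraries with the same letter belong together. The replicate block called 1 member in mRNA and 2 in translational efficiency there, as did a crossed pairing of the mRNA letters, chosen after seeing the data because same-letter deviations correlated at -0.14. With the block, genes called went from 614 to 528 in mRNA and from 78 to 88 in translational efficiency, and with the crossed pairing to 1135 and 249, and to 1 in footprints. At 36 h, blocking on the lysate called 0 genes and turned MT-ND3 translational efficiency to 0.045, with no other call changed.

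Over all genes, 36 h footprints gave 46 calls with DESeq2 and 21 with no count minimum, 36 h mRNA 2 with each library type alone and 2 with no minimum, and 36 h translational efficiency 1 with DESeq2. Footprints at 72 h gave 1 with DESeq2 size factors, 4 with the library type alone, 2 with no minimum and 1 with the mitochondrial total. Calls in 72 h mRNA were 829 (7.61%) with DESeq2, 793 (7.28%) with its size factors, 886 (5.2%) with no minimum, 293 with the library type alone and 9525 (87.4%) with the mitochondrial total. In 72 h translational efficiency they were 221 with DESeq2, 170 with its size factors, 260 with no minimum and 9769 (89.7%, 9768 of them lower) with the mitochondrial total. The difference between times gave 21 footprint calls with DESeq2 and 0 with the library type alone, filterByExpr, no minimum or the mitochondrial total, and 179, 71 and 0 mRNA calls with DESeq2, its size factors and the mitochondrial total.

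Scaling on the mitochondrial total also turned MT-ND4L (0.26 in mRNA, -0.19 in translational efficiency) and MT-ND5 (0.64 and -0.62) at 72 h, their difference between times in mRNA (0.090 and 0.49), MT-ATP6 mRNA (0.040), MT-ATP8 mRNA and translational efficiency (0.59 and -0.56) and MT-CO2 footprints (-0.065). At 36 h it turned the footprints of MT-ND3 (0.067), MT-ND4 (0.050) and MT-ND5 (0.016) and translational efficiency of MT-ND1 (0.065) and MT-ND3 (0.23). MT-ND3 was also turned in footprints by fitting the library type alone (0.27) and in translational efficiency by DESeq2 (0.11). The share difference at 72 h was 0.0078 percentage points of all listed transcripts in footprints and 3.899 points per codon in mRNA. The cause was not tested.

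Leaving out 1 library moved the estimates at 36 h across 0 for most members. The ranges for footprints were -0.51 to 0.58 for MT-ND1, -0.76 to 0.19 for MT-ND2, -0.74 to 0.69 for MT-ND3, -0.36 to 0.19 for MT-ND4, -1.74 to 0.61 for MT-ND4L and -0.77 to 0.31 for MT-ND5. Those for mRNA were -0.17 to 0.57 for MT-ND1, -0.082 to 0.37 for MT-ND2, -0.28 to 0.0012 for MT-ND3, -0.084 to 0.41 for MT-ND4, -0.049 to 0.33 for MT-ND5 and -0.24 to 0.14 for MT-ND6. Those for translational efficiency were -0.67 to 0.42 for MT-ND1, -0.89 to 0.062 for MT-ND2, -0.63 to 0.79 for MT-ND3, -0.51 to 0.047 for MT-ND4, -1.90 to 0.45 for MT-ND4L and -0.90 to 0.18 for MT-ND5. At 72 h, MT-ND5 mRNA ran from -0.39 to 0.046 and MT-ATP8 mRNA from -0.66 to 0.36, and the difference between times for MT-ND4L footprints from -0.14 to 2.22. Members called ran from 0 to 2 in 36 h footprints and translational efficiency and in 72 h mRNA and translational efficiency, and from 0 to 1 in the footprint difference between times. Genes called ran from 0 to 918 in 36 h footprints, 0 to 474 in 36 h translational efficiency, 0 to 1 in 72 h footprints, 110 to 2473 in 72 h mRNA, 1 to 1065 in 72 h translational efficiency, and 0 to 941 (footprints) and 1 to 89 (mRNA) in the difference between times. A lone library left in a group was taken to vary like the other groups.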
